A study of Mus musculus with 9 samples.

Results

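MHC class I presentation genes were followed in neutrophils sorted from 3 compartments of tumor-bearing mice. The 10 genes were taken by symbol from the 46517 rows of the expression table, and comprised the heavy chains H2-K1, H2-D1, H2-T23 and H2-M3, the light chain B2m, the transporter genes Tap1 and Tap2, the loading factor Tapbp, and the immunoproteasome subunits Psmb8 and Psmb9. Each symbol matched 1 row, and all 10 were among the 7794 genes with a log2 FPKM above 0 in at least 3 libraries, which were the genes tested. FPKM is fragments per kilobase of gene length for each 1000000 mapped reads.

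The mice were C57BL/6 animals into whose pancreas pancreatic ductal adenocarcinoma (PDAC) cells had been injected, called orthotopic transplanted (OT) mice. The injected cells were 1 luciferase-expressing line derived from a mouse pancreatic tumor. On day 27, live CD45+ cells that were negative for CD3, B220 and NK1.1 and positive for Ly6G and Ly6C were sorted from bone marrow, blood and tumor. There were 9 libraries, 3 for each compartment, each from a pool of OT mice, and within a compartment the 3 pools were from separate experiments. The study describes the compartments as coming from the same mice, but the sources used here do not say that a replicate number marks a shared pool. The bone marrow cells are labelled Ly6G.hi and the others Ly6G+, although the methods describe the same gate for all. Ages are not given in the sources used here, and mice without tumors were not analysed here, so each comparison is between compartments of OT mice.

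MHC class I molecules show peptides from inside a cell to CD8+ T cells, and their presence or absence is also read by natural killer cells. Proteasomes cut proteins into peptides, and the interferon-induced subunits Psmb8 and Psmb9 replace constitutive subunits and change which peptides are made. The Tap1 and Tap2 proteins pump the peptides into the endoplasmic reticulum, where tapasin (Tapbp) and chaperones load them onto a heavy chain paired with beta-2-microglobulin (B2m). H2-K1 and H2-D1 encode the classical heavy chains H-2K and H-2D, which vary between strains, whereas H2-T23 (Qa-1) and H2-M3 encode nonclassical chains with specialized peptides, and many of these genes are induced by interferon.

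All of these genes except B2m lie in the MHC region of chromosome 17 (GRCm38). H2-K1 (ENSMUSG00000061232.14) spans chr17:33996017-34000347 on the minus strand, and H2-D1 (ENSMUSG00000073411.10) spans chr17:35262730-35267499 on the plus strand. H2-T23 lies at chr17:36029773-36032855 and H2-M3 at chr17:37270220-37274484. Psmb9 (chr17:34181987-34187764), Tap1 (chr17:34187553-34197225), Psmb8 (chr17:34197721-34201454) and Tap2 (chr17:34203527-34216321) are neighbours, and Tapbp lies at chr17:33915899-33929292. B2m is on chromosome 2 (chr2:122147686-122153083). Psmb9 and Tap1 run head to head and share 212 bases, where reads cannot be assigned to either gene because the library kit does not mark strand.

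H2-K1 was higher and H2-D1 lower in tumor than in blood, and therefore the DNA just before both genes is shown, with that of their common partner B2m. Each run covers 250 bases before to 50 bases after the transcription start in RefSeq (GRCm38.p6), 5′ to 3′ on the strand of the gene, and the sequence table held such a window for 9 of the 10 genes, all but Tap2. Capitals mark matches, on either strand, to 4 motifs, chosen with these sequences in view: an NF-kB-like motif (GGGNNTNNCC), an interferon-response-like motif (GAANNGAA), a CRE-like motif (TGACG) and the CCAAT box (CCAAT). The windows are chr17:34000298-34000597 (minus strand), chr17:35262844-35263143 (plus strand) and chr2:122147437-122147736 (plus strand).
H2-K1: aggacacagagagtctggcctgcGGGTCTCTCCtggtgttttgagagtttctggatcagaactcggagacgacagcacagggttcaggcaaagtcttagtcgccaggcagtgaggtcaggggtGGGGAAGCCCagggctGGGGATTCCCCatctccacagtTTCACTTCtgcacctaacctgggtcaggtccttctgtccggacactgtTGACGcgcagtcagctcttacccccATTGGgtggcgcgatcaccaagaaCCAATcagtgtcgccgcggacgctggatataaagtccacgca
H2-D1: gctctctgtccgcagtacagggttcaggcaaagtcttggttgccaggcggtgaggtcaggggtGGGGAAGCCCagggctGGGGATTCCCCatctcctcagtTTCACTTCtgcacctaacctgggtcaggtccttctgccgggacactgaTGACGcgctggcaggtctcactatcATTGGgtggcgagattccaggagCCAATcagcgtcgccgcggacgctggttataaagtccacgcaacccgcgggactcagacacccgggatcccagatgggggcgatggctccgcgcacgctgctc
B2m: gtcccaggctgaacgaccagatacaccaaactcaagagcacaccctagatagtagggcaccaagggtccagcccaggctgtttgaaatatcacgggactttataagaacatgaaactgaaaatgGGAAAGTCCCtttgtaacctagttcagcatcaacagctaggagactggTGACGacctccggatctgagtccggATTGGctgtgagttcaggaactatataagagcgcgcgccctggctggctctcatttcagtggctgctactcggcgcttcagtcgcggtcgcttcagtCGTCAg

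In these windows H2-K1, H2-D1 and H2-M3 held all 4 motifs, and B2m held every motif except GAANNGAA. Those letters fix the spacing of the interferon-response-like motif, and wider spacings were not searched. The B2m window holds gaaactgaaa, where GAA recurs at a wider spacing. The H2-T23 window holds tttctctttc, which has that wider spacing on the other strand. The motif as searched therefore does not separate windows with and without such repeats, and the share of all windows with the wider spacing was not counted. Tap1 and Psmb9, whose windows share 275 bases, held the CRE-like motif and the CCAAT box, H2-T23 and Tapbp held the CCAAT box alone of the 4, and Psmb8 held no match. Of 32851 mouse promoter windows of the same length, 18.4% held the NF-kB-like motif, 20.1% the interferon-response-like motif, 20.8% the CRE-like motif, 37.4% the CCAAT box and 0.204% all 4. The H2-K1 and H2-D1 windows were alike, with 176 of 240 aligned bases identical (73.3%). The matches are a description of letters and not of binding.

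The libraries held 4579469 to 7948748 reads recovered from the table. Markers of the sorted cell type were present in all 9 libraries: the 8 neutrophil genes Ly6g, Csf3r, Cxcr2, S100a8, S100a9, Mmp9, Itgam and Retnlg summed to between 33210 and 34930 RPM in bone marrow (RPM, reads for each 1000000 recovered reads of the library) and 30860 to 32360 in blood, and to between 10320 and 12230 in tumor. In the tumor libraries 8 epithelial markers such as Krt8, Krt18 and Cdh1 summed to between 2727 and 5840 RPM, against 8.02 to 10.9 in bone marrow and 21.4 to 141 in blood, and 7 fibroblast markers such as Col1a1 and Col3a1 to between 1273 and 1540, against 0.180 to 9.99 elsewhere. All 8 epithelial markers and all 6 fibroblast markers tested were higher in tumor than in blood. Each of the 8 neutrophil genes was called lower in that comparison, and 7 of them in tumor against bone marrow, where Ly6g was at 0.0536. The similar sums of bone marrow and blood hid opposite changes. Of the 8 genes, blood had 2 called higher than bone marrow, Csf3r (5.055-fold) and Cxcr2 (2.42-fold). Another 5 were called lower, among them Ly6g (0.172-fold) and Retnlg (0.326-fold). Platelet markers such as Ppbp and Itga2b summed to between 469 and 638 RPM in blood, against 3.86 to 11.4 elsewhere, and all 6 were higher in blood than in bone marrow. Red cell markers summed to between 245 and 471 RPM in blood, against 26.8 to 56.7 in bone marrow and 12.8 to 139 in tumor, with 5 of 5 tested higher in blood than in either. Endothelial markers summed to between 86.1 and 124 RPM in tumor and to between 10.3 and 34.9 elsewhere. The 8 macrophage markers, led by Csf1r, summed to between 1255 and 1419 RPM in blood. They summed to 381 to 394 in bone marrow and 496 to 635 in tumor. Of the 6 tested, 3 were higher and 1, C1qc, was lower in blood than in bone marrow, beside 20.6% and 23.6% of all genes. In tumor against blood 1, C1qb, was higher and 2, Csf1r and Apoe, were lower, beside 28.1% and 34.5% of all genes. The 8 lymphocyte markers summed to between 79.8 and 146 RPM in blood, 31.8 to 60.5 in bone marrow and 6.98 to 11.5 in tumor, where Klrb1c had 0 reads in every library. For scale, the 10 class I genes summed to between 6274 and 6869 RPM for bone marrow, against 11420 to 12880 for blood and 6811 to 8281 for tumor. Cells of these other types can express class I genes, and their part in the results that follow was not tested. In bulk RNA, fewer cells with a transcript and less transcript per cell cannot be told apart.

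Of the 3 compartments, blood had the highest mean for 8 of the 10 class I genes, tumor for H2-K1 and bone marrow for H2-M3. The share of all genes tested with their highest mean in blood was not counted. For B2m, Tap2, Psmb8 and Psmb9 the excess of blood over bone marrow did not pass the test that follows. In tumor against blood, limma with Benjamini-Hochberg adjustment at 0.05 called 1 of the 10 genes higher (H2-K1) and 7 lower, and 2 did not pass (H2-M3 and B2m). Over all 7794 genes, 28.1% were called higher and 34.5% lower in this comparison. The median log2 fold change of the 10 genes was -1.07 against -0.17 over all genes tested. In tumor against bone marrow, 1 gene was higher (H2-K1, background 22.4%) and 6 were lower (background 32.9%), with a median of -0.80 against -0.21 over all genes. In blood against bone marrow, 5 genes were higher (background 20.6%) and 0 lower (background 23.6%), with a median of 0.74 against -0.04. With the replicate number as a block, tumor was below blood for 9 genes, and blood above bone marrow for 6. The 3 comparisons share libraries pairwise and are not independent of each other.

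**Figure D1:**
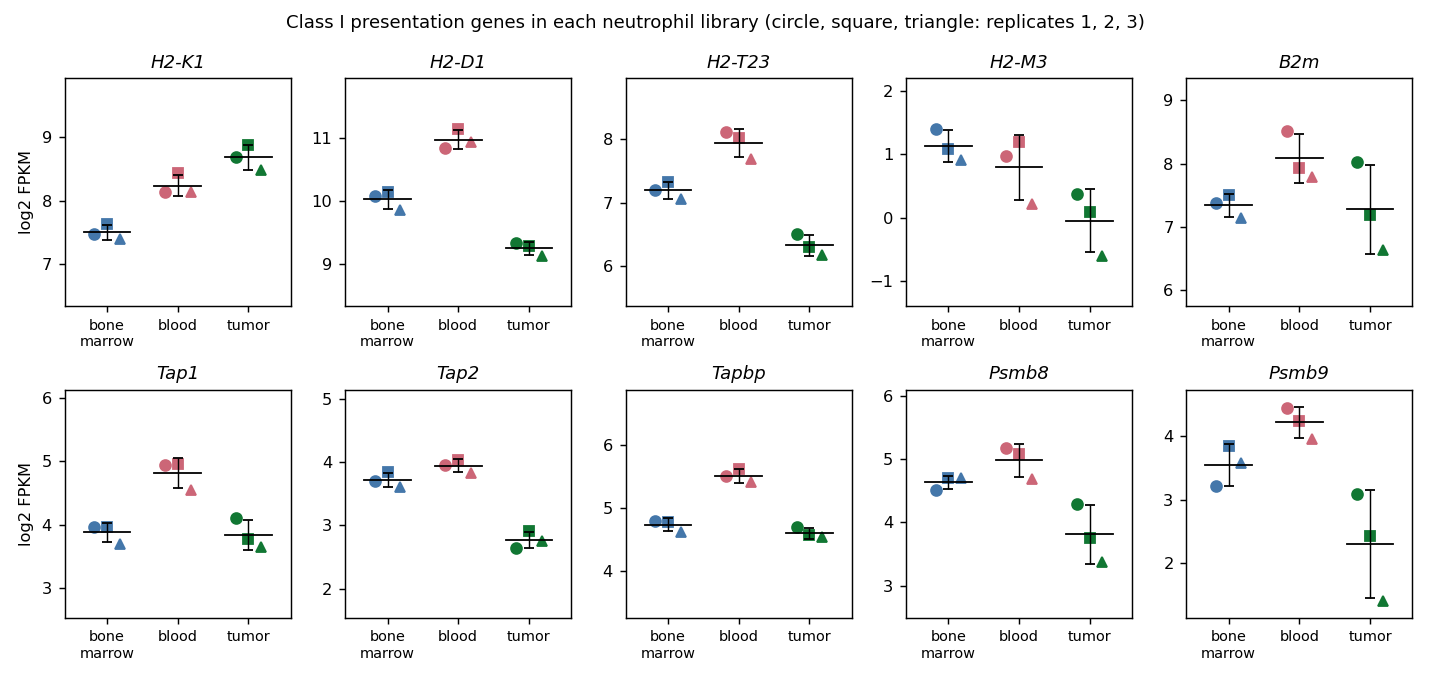
Log2 FPKM (vertical axis) of the 10 class I presentation genes in each of the 9 neutrophil libraries, by compartment (horizontal axis). Points are libraries, horizontal lines are means and bars are ± 1 SD (n = 3). H2-K1 is highest in the 3 tumor libraries, while H2-D1, H2-T23, Tap1, Tap2, Tapbp, Psmb8 and Psmb9 lie lower in every tumor library than in every blood library.

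The classical heavy chains went apart. H2-K1 stood at 7.47, 7.63 and 7.40 log2 FPKM in the bone marrow libraries, at 8.14, 8.44 and 8.14 in blood, and at 8.69, 8.88 and 8.49 in tumor. Every blood library was above every bone marrow library and every tumor library above every blood library, with group means of 7.50 ± 0.12, 8.24 ± 0.17 and 8.69 ± 0.19 (SD, n = 3). H2-K1 was 2.27-fold higher in tumor than in bone marrow (log2 fold change 1.18 ± 0.14, SE, adjusted p = 0.00021) and 1.67-fold higher in blood than in bone marrow (0.74 ± 0.14, adjusted p = 0.00361). The step from blood to tumor was the smallest, at 1.36-fold (0.45 ± 0.14, adjusted p = 0.0221). It lost its call in 6 of 21 alternatives, among them the omission of blood replicate 1 (adjusted p = 0.0707), blood replicate 3 (0.0728), tumor replicate 1 (0.0501) or tumor replicate 2 (0.0645), over a range of adjusted p from 0.000111 to 0.0915, with the fold change between 0.35 and 0.89.

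H2-D1 stood at 10.07, 10.15 and 9.86 log2 FPKM in bone marrow, at 10.84, 11.13 and 10.93 in blood, and at 9.33, 9.29 and 9.14 in tumor. None of the 3 groups overlapped, and here the tumor libraries were the lowest. Means were 10.03 ± 0.15, 10.97 ± 0.15 and 9.25 ± 0.10 (SD, n = 3). In tumor H2-D1 was at 0.305 of its blood level (log2 fold change -1.71 ± 0.14, adjusted p = 2.71e-05) and at 0.586 of its bone marrow level (-0.77 ± 0.14, adjusted p = 0.002). In blood it was 1.92-fold higher than in bone marrow (0.94 ± 0.14, adjusted p = 0.00119).

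Set against each other inside a library, which removes any scaling between libraries, there were 6.71, 6.32 and 6.08 H2-D1 reads for each H2-K1 read in bone marrow and 7.20, 7.16 and 7.64 in blood. The tumor libraries had 1.73, 1.47 and 1.73. This ratio was chosen after the values were seen and is given as a description with no test. Of the reads of the 4 heavy chains, H2-K1 took 12.0% to 13.1% for bone marrow, 10.9% to 11.5% for blood and 34.6% to 38.6% for tumor, and H2-D1 took 79.4% to 80.7%, 80.8% to 83.3% and 56.7% to 60.2%. H2-D1 was the most counted heavy chain in every library. As to copies that could share reads, 0 of 1469 windows of 151 bases, the read length, in the H2-K1 transcript occurred in a transcript of another gene, and 34 of 1952 (1.74%) in the H2-D1 transcript did, all in H2-Q1. How reads that map to several places were handled is not given in the sources used here.

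H2-T23, the Qa-1 chain recognized by the inhibitory receptor NKG2A with CD94, followed H2-D1. It was measured at 7.20, 7.33 and 7.06 log2 FPKM in bone marrow, 8.11, 8.02 and 7.69 in blood, and 6.50, 6.30 and 6.17 in tumor. The groups did not overlap, with the blood libraries highest and the tumor libraries lowest. H2-T23 in tumor was at 0.325 of blood (log2 fold change -1.62 ± 0.14, adjusted p = 4.15e-05) and 0.547 of bone marrow (-0.87 ± 0.14, adjusted p = 0.00125), and in blood it was 1.68-fold higher than in bone marrow (0.75 ± 0.14, adjusted p = 0.00393). Over the 9 libraries the values of H2-D1 and H2-T23 had a Pearson r of 0.976, given as a description of libraries that share their compartments.

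H2-M3, which presents formylated peptides such as those of bacteria, was the gene with the fewest reads of the 10, with 22 to 75 in a library. Its values were 1.40, 1.09 and 0.91 log2 FPKM in bone marrow, 0.98, 1.19 and 0.21 in blood, and 0.37, 0.09 and -0.60 in tumor. The tumor libraries were below all bone marrow libraries and overlapped with blood, whose replicate 3 lay apart from the other two. The difference from bone marrow was -1.18 ± 0.34 (SE, log2, adjusted p = 0.0184) and that from blood was -0.84 ± 0.34 (adjusted p = 0.0598). Without bone marrow replicate 1 the first became -1.05 (adjusted p = 0.0635) and without tumor replicate 3 it became -0.90 (adjusted p = 0.0514). With plain library totals it was -0.73 (adjusted p = 0.0868) and with no filter the adjusted p was 0.0923, over a range of 0.00476 to 0.0923. Without blood replicate 3 the second became -1.13 (adjusted p = 0.0194), and without tumor replicate 1 it became -1.05 (adjusted p = 0.0406), over a range of 0.0143 to 0.316 whose lowest value came with the replicate block.

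B2m, the light chain that every heavy chain above needs at the cell surface, did not pass the test in any comparison of the main fit. Its values were 7.37, 7.51 and 7.14 log2 FPKM in bone marrow, 8.51, 7.93 and 7.79 in blood, and 8.03, 7.18 and 6.63 in tumor. The blood libraries were all above the bone marrow libraries, whereas the 3 tumor libraries were spread over 1.40 log2 units and overlapped with both. Group means were 7.34 ± 0.19, 8.08 ± 0.38 and 7.28 ± 0.70 (SD, n = 3). The differences were -0.80 ± 0.35 (SE) for tumor against blood (adjusted p = 0.077), -0.06 ± 0.35 for tumor against bone marrow (0.903) and 0.74 ± 0.35 for blood against bone marrow (0.122). Single libraries moved these values in both directions. The difference of tumor from blood was -1.17 without tumor replicate 1 (adjusted p = 0.00761) and -0.48 without tumor replicate 3 (adjusted p = 0.224), over a range of adjusted p from 0.00761 to 0.381 in all alternatives. Blood against bone marrow stayed at 0.74 without tumor replicate 1, with an adjusted p of 0.0403, and was 0.52 without blood replicate 1 (adjusted p = 0.308), over a range of 0.0326 to 0.514. With the replicate number as a block, B2m passed in tumor against blood (adjusted p = 0.0261) and in blood against bone marrow (adjusted p = 0.0468). With limma-voom on the recovered reads it also passed in tumor against blood (adjusted p = 0.0123) and in blood against bone marrow (0.0326). With only the 2 compartments compared it passed in blood against bone marrow (limma, adjusted p = 0.0394).

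**Figure D2:**
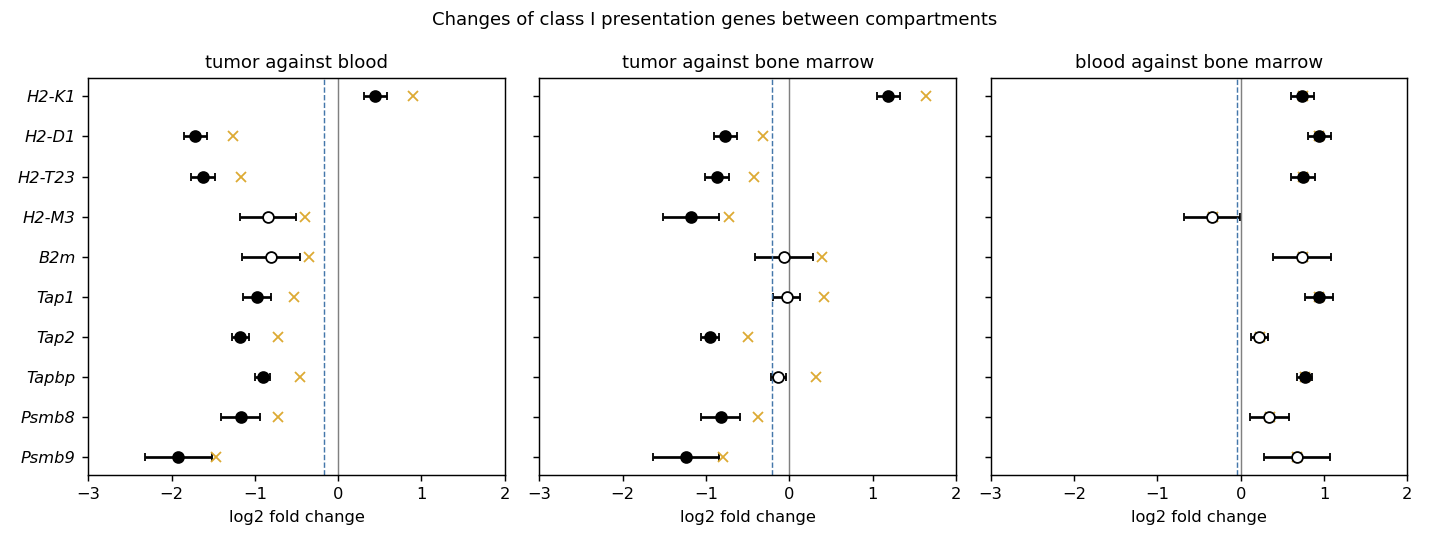
Log2 fold change (horizontal axis) of each gene in the 3 comparisons, with bars of ± 1 SE from limma. Filled points have an adjusted p under 0.05, the dashed line is the median of all 7794 genes, and crosses give the value with plain library totals. H2-K1 alone lies right of 0 in both tumor comparisons among the filled points, and the crosses of Tap1, Tapbp and B2m cross 0 in tumor against bone marrow.

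The scaling of the libraries bears on all tumor comparisons. The library sizes behind the deposited values were 0.840 ± 0.043 of the recovered totals for bone marrow, 0.841 ± 0.023 for blood and 1.15 ± 0.069 for tumor (SD, n = 3). With plain totals the median of all genes shifted by 0.45 on the log2 scale in both tumor comparisons. Relative to the median gene, which no such scaling moves, H2-K1 was at 0.62 in tumor against blood and at 1.39 against bone marrow, while H2-D1 was at -1.54 and -0.57 and Psmb9 at -1.74 and -1.04. Tap1 and Tapbp were at 0.17 and 0.07 relative to the median gene in tumor against bone marrow.

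The transporter genes differed from each other. Tap1 was measured at 3.97, 3.96 and 3.70 log2 FPKM in bone marrow, at 4.94, 4.96 and 4.54 in blood, and at 4.11, 3.77 and 3.65 in tumor. All blood libraries were above all others, and the tumor and bone marrow libraries overlapped. Tap1 in tumor was at 0.509 of blood (log2 fold change -0.97 ± 0.16, adjusted p = 0.00116) and differed from bone marrow by -0.03 ± 0.16 (adjusted p = 0.884), a value that became 0.42 with plain library totals (adjusted p = 0.0455). Blood was 1.92-fold above bone marrow (0.94 ± 0.16, adjusted p = 0.00261).

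Tap2 stood at 3.70, 3.84 and 3.61 log2 FPKM in bone marrow, at 3.96, 4.04 and 3.83 in blood, and at 2.65, 2.91 and 2.74 in tumor. The tumor libraries were the lowest without overlap, and the bone marrow and blood libraries overlapped. Tap2 in tumor was at 0.443 of blood (log2 fold change -1.17 ± 0.10, adjusted p = 4.48e-05) and at 0.517 of bone marrow (-0.95 ± 0.10, adjusted p = 0.000163). Blood against bone marrow gave 0.22 ± 0.10 (adjusted p = 0.122).

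Within a library the log2 FPKM of Tap1 minus that of Tap2 was 0.16 ± 0.10 for bone marrow, 0.87 ± 0.14 for blood and 1.08 ± 0.33 for tumor (SD, n = 3). Compartments held 83.2% of its sum of squares, with an exact upper-tail permutation p of 0.0214 and an adjusted p of 0.0429 over the 6 ratios tested. This p is the share of the 280 splits of 9 libraries into 3 groups of 3 that gave at least the observed percent. All 3 bone marrow libraries lay below all other libraries, and blood and tumor overlapped. This difference, like those of the other ratios below, depends on the gene lengths used for FPKM. Only its changes between compartments can be read, not its size or sign. Without blood replicate 3 the adjusted p was 0.0714 without tumor replicate 1 it was 0.0536, and with permutation within replicate numbers, which allows no p below 0.0278, it was 0.0833.

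Tapbp, which holds empty class I molecules at the transporter, was measured at 4.80, 4.79 and 4.62 log2 FPKM in bone marrow, at 5.50, 5.62 and 5.40 in blood, and at 4.70, 4.57 and 4.54 in tumor. Blood stood above both others without overlap, and tumor overlapped with bone marrow. Tapbp in tumor was at 0.535 of blood (log2 fold change -0.90 ± 0.09, adjusted p = 7.78e-05), and the difference from bone marrow was -0.13 ± 0.09 (adjusted p = 0.249) and became 0.32 with plain library totals (adjusted p = 0.0119). Blood was 1.71-fold higher than bone marrow (0.77 ± 0.09, adjusted p = 0.000403). The values of Tapbp and Tap1 had a Pearson r of 0.975 over the 9 libraries.

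Both immunoproteasome subunits were lower in tumor. Psmb8 was measured at 4.52, 4.70 and 4.69 log2 FPKM in bone marrow, at 5.18, 5.08 and 4.68 in blood, and at 4.30, 3.76 and 3.38 in tumor. Every tumor library was below every other library, and bone marrow and blood overlapped. Psmb8 in tumor was at 0.444 of blood (log2 fold change -1.17 ± 0.23, adjusted p = 0.00273) and at 0.564 of bone marrow (-0.83 ± 0.23, adjusted p = 0.017). The call against bone marrow was lost without bone marrow replicate 2 (adjusted p = 0.0521) or 3 (0.0502), with no filter (0.0982), with quantile normalization (-0.56, 0.0738) and with plain library totals, where the difference was -0.37 (0.184), over a range of 0.00284 to 0.184. Blood against bone marrow gave 0.35 ± 0.23 (adjusted p = 0.267).

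Psmb9 had values of 3.21, 3.86 and 3.58 log2 FPKM in bone marrow, 4.45, 4.25 and 3.96 in blood, and 3.09, 2.42 and 1.40 in tumor. The groups did not overlap, with tumor lowest and blood highest, and the tumor libraries were spread over 1.69 log2 units. Psmb9 in tumor was at 0.265 of blood (log2 fold change -1.92 ± 0.40, adjusted p = 0.00343), the lowest such fold of the 10 genes, and at 0.423 of bone marrow (-1.24 ± 0.40, adjusted p = 0.029). Against bone marrow the call was lost without bone marrow replicate 2 (adjusted p = 0.0918), bone marrow replicate 3 (0.0703) or tumor replicate 2 (0.0556), with only the 2 compartments compared (0.0625), with no filter (0.157) and with plain library totals, where the difference was -0.79 (0.103), over a range of 0.00464 to 0.157. Blood against bone marrow gave 0.67 ± 0.40 (adjusted p = 0.209).

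Each immunoproteasome subunit takes the place of a constitutive one, so the log2 FPKM of each was also set against its partner in the same library. Psmb8 minus Psmb5 was 0.97 ± 0.20 for bone marrow, 2.17 ± 0.21 for blood and 0.71 ± 0.23 for tumor (SD, n = 3), and the blood libraries lay above all others. Compartments held 92.8% of the sum of squares (exact upper-tail permutation p = 0.00714, adjusted p = 0.0214). Psmb9 minus Psmb6 was -0.53 ± 0.23, 1.32 ± 0.21 and -1.44 ± 0.69, with no overlap between compartments and 91.1% of the sum of squares between them (exact permutation p = 0.00357, the smallest possible, adjusted p = 0.0214). The constitutive partners were themselves lower in blood than in bone marrow. Psmb5 differed by -0.85 ± 0.24 (log2, SE, limma adjusted p = 0.0212) and Psmb6 by -1.17 ± 0.26 (0.00874), while Psmb8 and Psmb9 did not pass in that comparison. The third inducible subunit, Psmb10, minus Psmb7 was 3.48 ± 0.12, 3.95 ± 0.27 and 4.08 ± 0.43 (52.6%, exact permutation p = 0.146, adjusted p = 0.146), although Psmb7 was below the filter. Between any 2 compartments 3 against 3 libraries allow no exact p below 0.1, so no pairwise ratio can pass. With permutation within replicate numbers the adjusted exact p was 0.0833 for Psmb8 minus Psmb5 and for Psmb9 minus Psmb6.

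For heavy against light chain, H2-K1 minus B2m was 0.16 ± 0.09 for bone marrow, 0.16 ± 0.47 for blood and 1.41 ± 0.65 for tumor (70.3% of the sum of squares, exact permutation p = 0.0357, adjusted p = 0.0536). The sign follows the FPKM gene lengths. Per kilobase of exon, on the scale given below, B2m had the higher mean in each compartment. It was 854 against 223 for H2-K1 in bone marrow, 1469 against 375 in blood and 1204 against 695 in tumor. H2-D1 minus B2m was 2.69 ± 0.04, 2.89 ± 0.49 and 1.98 ± 0.61 (52.9%, exact permutation p = 0.0714, adjusted p = 0.0857). Neither passed after adjustment. Without tumor replicate 3 both did (adjusted p = 0.0429 and 0.0343), without blood replicate 1 both did (adjusted p = 0.0471 for each), and without tumor replicate 3 so did Psmb10 minus Psmb7 (adjusted p = 0.0268).

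**Figure D3:**
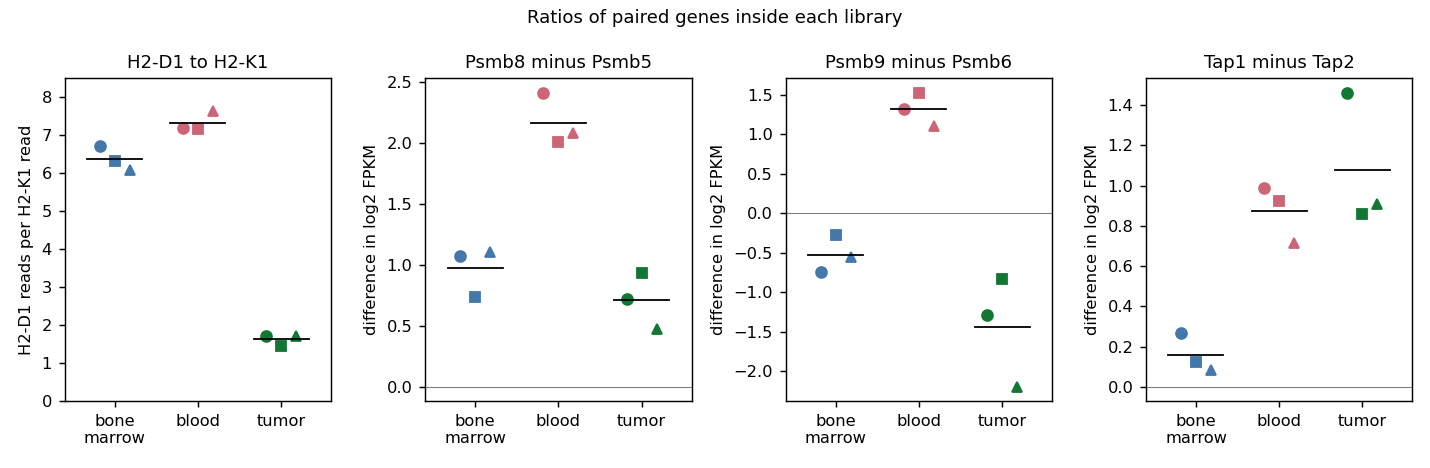
Within-library ratios by compartment (horizontal axis), with a point for each library and a line at the mean of the 3. The left panel gives H2-D1 reads for each H2-K1 read and the others the difference in log2 FPKM between paired genes. Tumor libraries have 1.47 to 1.73 H2-D1 reads for each H2-K1 read against 6.08 to 7.64 elsewhere, and blood libraries are highest for Psmb8 minus Psmb5 and Psmb9 minus Psmb6.

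To order the genes by level, the recovered reads were divided by exon length in kilobases and scaled to 1000000 recovered reads, a scale without the library scaling above. H2-D1 was the highest of the 10 in each compartment, at 1620 ± 90.9 for bone marrow, 3124 ± 246 for blood and 1297 ± 56.2 for tumor (SD, n = 3). B2m came next at 854 ± 67.7, 1469 ± 443 and 1204 ± 585, and in tumor its libraries overlapped with those of H2-D1. H2-K1 followed at 223 ± 7.31, 375 ± 36.7 and 695 ± 52.9, ahead of H2-T23 at 131 ± 5.72, 222 ± 34.4 and 98.3 ± 10.2. In tumor the levels of H2-T23 and Tapbp (103 ± 7.06) overlapped, whereas in bone marrow Tapbp (82.5 ± 3.45) was below H2-T23. Tap2, Tap1 and Psmb8 were between 18.3 and 43.8 on average and Psmb9 between 9.85 and 25.0. The libraries of Tap2 and Tap1 overlapped in blood and tumor, those of Tap1 and Psmb8 in bone marrow, those of Psmb8 and Psmb9 in blood and tumor, and those of Tap2 and Psmb8 in tumor. H2-M3 was the lowest of the 10 in each compartment, at 5.48 ± 0.937, 4.46 ± 1.40 and 3.36 ± 0.995.

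Beyond the 10 genes, 42 further genes of the class I pathway were listed (other class I chains, loading and trimming factors, other immunoproteasome and activator genes, and transcription regulators), of which 26 were tested. In tumor against blood 8 were higher and 10 lower (median log2 fold change -0.39, background 28.1% and 34.5%), shares close to those over all genes. In tumor against bone marrow 6 were higher and 8 lower (-0.08, background 22.4% and 32.9%), and in blood against bone marrow 10 were higher and 7 lower (0.21, background 20.6% and 23.6%). The groups within this list differed in direction.

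Chaperones and enzymes of peptide loading and trimming were higher in tumor than in blood for 5 of 7 tested genes (background 28.1%) and lower for 0 (background 34.5%), opposite to Tap1, Tap2 and Tapbp. Calr (calreticulin) had a mean of 5.28 log2 FPKM in tumor and of 4.26 in bone marrow, and tumor stood above blood by 2.28 ± 0.19 (log2, SE, adjusted p = 3.28e-05). Canx (calnexin) stood at 2.75 log2 FPKM for bone marrow, 1.53 for blood and 3.34 for tumor (1.81 ± 0.11, adjusted p = 7.75e-06) and Pdia3 (ERp57), which works beside tapasin, at 3.95, 2.82 and 4.35 (1.53 ± 0.15, adjusted p = 6.99e-05). Against bone marrow Calr (1.03, adjusted p = 0.00248) and Canx (0.59, adjusted p = 0.00233) were also higher in tumor, while Pdia3 gave 0.40 (adjusted p = 0.0527). These chaperones fold many other proteins of the secretory pathway as well.

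Other class I chains went both ways, with 2 of 7 tested higher and 3 lower in tumor than in blood, beside 28.1% and 34.5% of all genes. H2-Q6 stood at 1.14 log2 FPKM for bone marrow, 2.28 for blood and 4.31 for tumor, and was higher in tumor than in blood by 2.03 ± 0.24 (log2, SE, adjusted p = 0.00018) and than in bone marrow by 3.17 ± 0.24 (adjusted p = 2.21e-05). Its order of compartments was that of H2-K1. H2-Q10, which encodes a secreted class I molecule, stood at 6.08, 8.33 and 5.53 and was lower in tumor than in blood by -2.80 ± 0.15 (adjusted p = 4.56e-06), and H2-T24 stood at 3.28, 4.17 and 2.29 (-1.89 ± 0.16, adjusted p = 3.84e-05). H2-Q6 shared 5.94% of its 151-base windows with H2-Q7, so reads may be split between both genes, whereas H2-Q10 and H2-T24 shared 0.

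Of the remaining immunoproteasome and activator genes, Psme1, a subunit of the interferon-induced activator PA28, was lower in tumor than in blood by -0.76 ± 0.22 (adjusted p = 0.0182), and Psme3, of a nuclear activator, was higher by 0.73 ± 0.23 (adjusted p = 0.0257). The third inducible catalytic subunit, Psmb10, gave 0.62 ± 0.27 (adjusted p = 0.0772), so that its value had the opposite sign to those of Psmb8 and Psmb9. The constitutive subunit Psmb6 was higher in tumor than in blood by 0.85 ± 0.26 (adjusted p = 0.0235), and Psmb5 gave 0.29 ± 0.24 (adjusted p = 0.319).

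Regulators of class I transcription were lower in tumor than in blood for 6 of 8 tested (background 34.5%) and higher for 0. The factors with the largest changes were Irf2 (-1.62 ± 0.20, adjusted p = 0.000246), Irf8 (-1.56 ± 0.37, adjusted p = 0.0071) and Irf9 (-1.42 ± 0.17, adjusted p = 0.000212). Nlrc5, the transactivator best known for class I genes, was below the filter and not tested, although it had 79 to 421 reads per library. Its mean log2 FPKM was -0.13 for tumor, -0.14 for blood and -1.71 for bone marrow. For Nlrc5 the tumor libraries overlapped with those of blood, and both groups lay above every bone marrow library. Interferon receptors and their kinases, a separate list, were lower in 6 of 7 tested and higher in 0, led by Ifngr2 (-1.69 ± 0.14, adjusted p = 2.98e-05), Ifngr1 (-1.51 ± 0.08, adjusted p = 4.17e-06) and Jak1 (-1.48 ± 0.12, adjusted p = 2.74e-05). Median log2 fold changes were -0.99 for the regulators and -0.99 for the receptors and kinases, beside -1.07 for the 10 class I genes and 34.5% of all genes called lower. In blood against bone marrow 4 of the 8 regulators were higher and 2 lower, and 5 of the 7 receptor and kinase genes were higher and 0 lower, beside 20.6% and 23.6% of all genes.

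**Figure D4:**
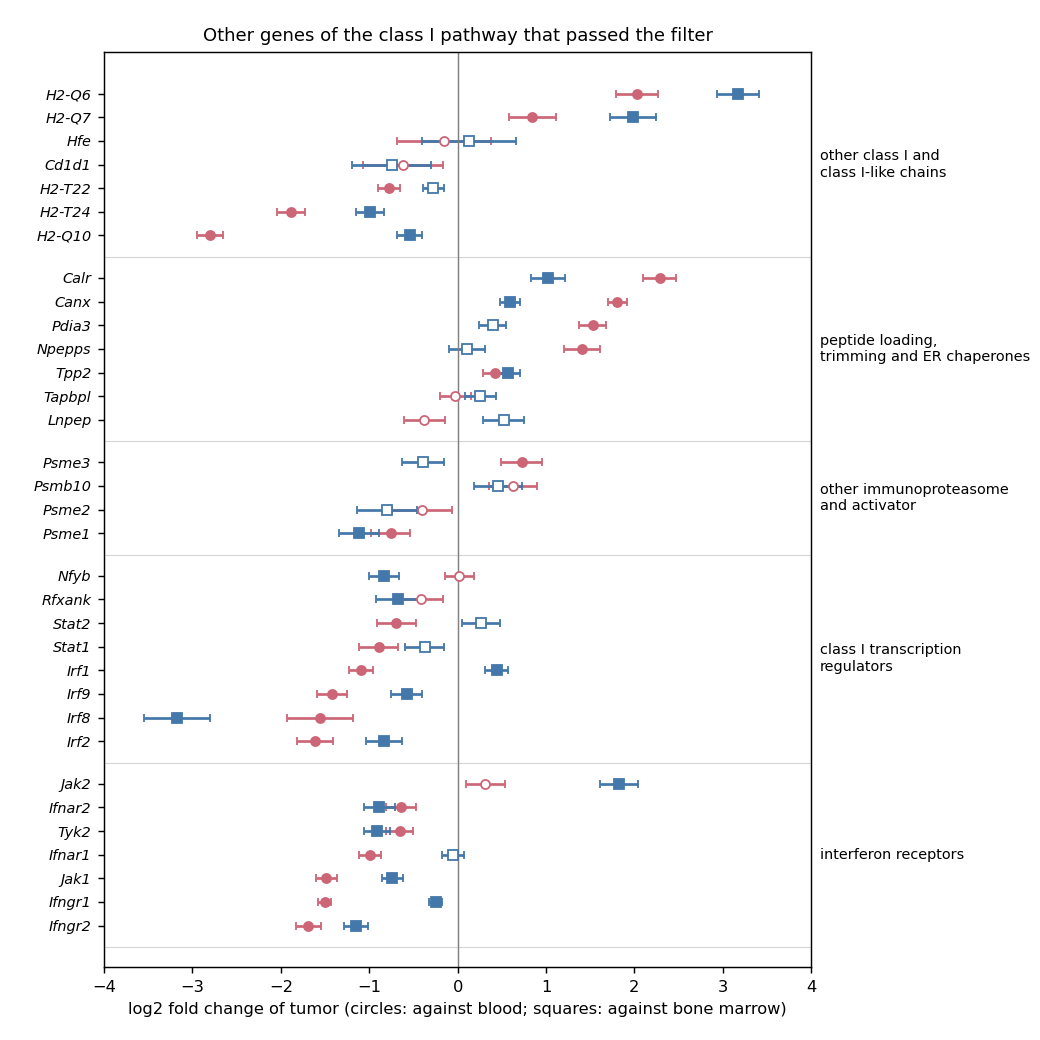
Log2 fold change (horizontal axis) of tumor against blood (circles) and against bone marrow (squares) for the other class I pathway genes and the interferon receptor and kinase genes that passed the filter, by group. Bars are ± 1 SE from limma and filled symbols have an adjusted p under 0.05. Calr, Canx and Pdia3 lie on the right, and the interferon receptor genes Ifngr1 and Ifngr2 and the kinase Jak1 on the left.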

How the data were processed

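Neutrophil RNA from 9 libraries was analysed (SMARTSeq v2, paired 151-base reads). According to the methods and the submitters' notes, reads were mapped to GRCm38 with STAR 2.5.2b and counted with featureCounts 1.5.0 on GENCODE M7, and edgeR 3.8.6 is named without a role. The authors deposited log2 FPKM values, which were used as deposited. The spacing of low values gave back whole reads for 46516 of 46517 genes (tolerance 0.02 reads), 4579469 to 7948748 per library. A prior near 0.25 reads had been added, and the length used equalled the genomic span in 39157 genes. Reads carry no molecular identifiers. The limma p-values set differences between compartment means against the spread between libraries, which are pools and not single mice. Positions are from GENCODE M21 and promoter windows from RefSeq.

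Genes with a log2 FPKM above 0 in at least 3 libraries were fitted under R 4.3.3 with lmFit and trended eBayes of limma 3.58.1, 1 mean per compartment and no covariates, and adjusted by Benjamini-Hochberg at 0.05 over all 7794. Log2 fold changes are on the deposited scale. The 6 within-library ratios were given exact permutation tests. Scripts were tested on simulated data. The 10 genes, the lists and the rule for naming other genes (the 10 genes, up to 3 from each pathway list with the largest change of tumor against blood past the threshold, genes in a ratio, the 3 genes most correlated with H2-K1 and with B2m, and markers of other cell types) were chosen with earlier results of these data known, and Nlrc5, H2-Aa, H2-Ab1, H2-Eb1, H2-DMa and Ciita are named outside that rule. Alternatives covered the filter, the pseudocount, scaling, limma-voom on the recovered reads, the eBayes settings, only the 2 compartments compared, the replicate block and each library left out.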

Additional observations from a re-analysis of the deposited data

How the results depend on the processing

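Of the single-gene values under the alternatives, 591 kept their direction and their side of the threshold, 21 lost the call, 13 gained one and 2 reversed. The reversed values were those of Tap1 (0.42) and Tapbp (0.32) in tumor against bone marrow with plain library totals. With these totals 2923 genes were higher and 1901 lower in tumor than in blood, against 2194 and 2686 with the deposited scaling, and 2601 were higher and 1634 lower in tumor than in bone marrow, against 1745 and 2566. For tumor against blood, 0 of the 10 genes were higher, in place of 1, with no filter on low values and with only the 2 compartments compared. For tumor against bone marrow, 3 in place of 1 were higher with plain totals, and 3 in place of 6 were lower with no filter and with plain totals. With no filter 2574 of all 46517 genes were lower in tumor than in bone marrow, against 2566 of 7794 in the main fit. For tumor against blood 4611 of 46517 were then higher, against 2194 of 7794. Leaving out 1 library gave 0 to 1 higher and 7 to 9 lower for tumor against blood, 1 higher each time and 4 to 6 lower for tumor against bone marrow, and 5 to 6 higher and 0 lower each time for blood against bone marrow. The cause was not tested.

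Among the other pathway genes, tumor against blood gave 5 higher in place of 8 under the stricter filter (log2 FPKM over 2) and 6 lower in place of 10 with plain totals. Tumor against bone marrow gave 11 higher with limma-voom and 12 with plain totals in place of 6, and 5 lower with no filter, 3 with plain totals and 4 under the stricter filter in place of 8. Blood against bone marrow gave 3 lower in place of 7 under the stricter filter, which tests fewer genes. Without 1 library these counts were 5 to 8 higher and 8 to 10 lower for tumor against blood, 5 to 8 higher and 5 to 9 lower for tumor against bone marrow, and 9 to 11 higher and 7 lower each time for blood against bone marrow.

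For the ratios, the percent of the sum of squares between compartments ranged without 1 library from 42.0 to 70.6 for H2-D1 minus B2m, 60.5 to 89.3 for H2-K1 minus B2m, 42.8 to 83.2 for Psmb10 minus Psmb7, 91.5 to 94.6 for Psmb8 minus Psmb5, 88.6 to 96.5 for Psmb9 minus Psmb6 and 78.1 to 94.3 for Tap1 minus Tap2. For Tap1 minus Tap2 on log2(FPKM + 1) it was 83.0 (exact permutation, adjusted p = 0.05).

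The sources used here do not tie a replicate number to a shared pool of mice, and deviations of same-numbered libraries had correlations from -0.07 to 0.11. With the replicate block, 9 genes in place of 7 were lower in tumor than in blood, H2-M3 (adjusted p = 0.0143) and B2m (0.0261) being added, and 6 in place of 5 were higher in blood than in bone marrow, B2m being added (0.0468). Permuting within replicate numbers allows no p below 0.0278, and the adjusted exact p was 0.0833 for Psmb8 minus Psmb5 (92.8%), Psmb9 minus Psmb6 (91.1%) and Tap1 minus Tap2 (83.2%).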

Other observations

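The class II genes, which antigen-presenting cells use to show peptides to CD4+ T cells, were compared in the same way. H2-Aa, H2-Ab1 and H2-Eb1 had means of 1.33, 1.37 and -0.04 log2 FPKM in bone marrow, 3.97, 4.05 and 2.66 in blood, and 2.28, 2.60 and 1.23 in tumor. Of the 5 class II genes tested with limma, tumor was below blood for 4 (against 34.5% of all genes called lower) and above it for 0, and in tumor against bone marrow 2 were higher (against 22.4% of all genes) and 1, H2-DMa, was lower (against 32.9%). In blood against bone marrow 3, H2-Aa, H2-Ab1 and H2-Eb1, were higher (against 20.6%) and 0 lower (against 23.6%). The median log2 fold change of the 5 was 2.64 there, against -0.04 over all genes tested. Ciita, their transactivator, was below the filter. Blood libraries also had the highest summed RPM of macrophage and lymphocyte markers, although the macrophage marker C1qc was lower in blood than in bone marrow. Of 5 lymphocyte markers tested, 3 were higher in that comparison and 0 lower, but Nkg7 and the untested Cd3d had lower means in blood. The 5 dendritic cell markers, 0 of them tested, had another order. Their median sum was 11.1 RPM for blood libraries (range 7.73 to 15.9), below the 22.1 of bone marrow (range 10.7 to 23.1). The part of these cell types in the class II values was not tested.

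Within the tumor, replicate 1 had the highest value of the 3 libraries for 8 of the 10 class I genes, and replicate 3 the lowest for 9. The same order was not counted over all genes tested. The library size behind the deposited values was 1.14, 1.09 and 1.22 of the recovered total in tumor replicates 1, 2 and 3, and it scales every gene of a library. The distance between the highest and the lowest library was 1.69 log2 units for Psmb9 and 1.40 for B2m, and 0.16 for Tapbp. Epithelial markers summed to 3617 RPM in tumor replicate 1, 2727 in replicate 2 and 5840 in replicate 3, and neutrophil markers to 12230, 11470 and 10320. Their part in the order of the libraries was not tested.

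The genes whose log2 FPKM followed H2-K1 most closely over the 9 libraries were Usp18 (Pearson r = 0.992), which encodes an interferon-induced protease, 4933434E20Rik (0.990) and Kdm3a (0.987), which encodes a histone demethylase. Those closest to B2m were Gm15371 (0.959), Abhd11 (0.932) and RP23-250E1.9 (0.905). H2-K1 itself had a Pearson r between -0.63 (H2-M3) and 0.14 (Tap1) with the other 9 class I genes. These correlations describe libraries that share their compartments and carry no test.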
